A study of Homo sapiens with 10 samples.

Results

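The genes described here are the forkhead transcription factors FOXO1, FOXO3 and FOXO4 together with 7 genes linked to FOXO activity and to quiescence, the reversible arrest of the cell cycle: BCL6, CCNG2, TXNIP, PIK3IP1, CITED2, SESN3 and TOB1. They were taken by name, and every probe set that the array annotation pairs with exactly 1 of these symbols was used, which gave 34 probe sets of 41091 and 10 genes of 19775. The cells were LoVo, an established line from a human colorectal adenocarcinoma, bought from a cell bank. Control cells (C, n = 3) were kept in DMEM with 10% fetal bovine serum, serum-starved cells (SS, n = 3) in DMEM without serum, and ADMA-treated cells (ADMA, n = 4) in DMEM without serum to which 10 μM asymmetric dimethylarginine, an inhibitor of the nitric oxide synthases, had been added. All 3 groups were harvested after 96 h and carried no genetic change made for the study, and each culture was hybridized to its own Affymetrix HG-U133 Plus 2.0 array. There was no group with serum and ADMA, so that ADMA was measured in the absence of serum alone.

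FOXO proteins are held in the cytoplasm when insulin or growth factors activate PI3K and its downstream kinase AKT, which phosphorylates them. When that signal is withdrawn they enter the nucleus, bind a forkhead motif in DNA, and are known to raise genes of cell cycle arrest, stress resistance, autophagy and nutrient saving. Expression arrays measure the RNA of the factors and of their targets and say nothing of where the proteins are or how they are phosphorylated.

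The deposited values are MAS 5.0 signals, linear units of brightness scaled so that each array has the same trimmed mean. The brightest probe set of a gene by mean log2 signal stands for it, and all 10 genes passed the filter on low signal, a mean of at least 76.3, which is the median of all probe sets. Groups were compared with limma over the 10 arrays and 12342 genes. A gene is said to have risen or fallen where the Benjamini-Hochberg adjusted p was under 0.01 and the fold at least 1.2. The median signal of all probe sets was 60.7 to 73.1 on C arrays, 87.5 to 90.7 on SS arrays and 91.9 to 98.1 on ADMA arrays, and the control probe set for 28S ribosomal RNA gave 488 to 566, 1783 to 3023 and 1187 to 1631 in the same order. The ratio of the 3′ to the 5′ probe set of ACTB, a sign of RNA quality, was 1.01 to 1.08 in C, 1.13 to 1.23 in SS and 1.02 to 1.05 in ADMA arrays, so that SS stood above both other groups, as it did for FOXO1, FOXO3, BCL6, CCNG2, CITED2 and TOB1. Centring arrays on their medians took the median log2 difference of all genes from 0.07 to -0.32 for SS minus C, from 0.03 to -0.09 for ADMA minus SS and from 0.07 to -0.44 for ADMA minus C, and values of the main probe sets and of gene lists that this moves by over 1.5 times, or whose call or direction it turns, are given in this scaling where they stand. The part of these array-wide differences and of the ACTB ratio in the results was not tested. All 11 markers of colon epithelium passed the filter, against 3 of 8 fibroblast, 1 of 5 endothelial and 2 of 4 leukocyte markers that had a probe set. The summed signal of the epithelial markers was 81684 to 83355 in C, 114750.0 to 133308 in SS and 143615 to 163543 in ADMA arrays, and that of the leukocyte markers, led by the lysozyme gene LYZ, which epithelial cells can also express, 492 to 703, 3974 to 4638 and 1364 to 2032. Cells are pooled in each culture, and fewer cells of a kind and less RNA per cell cannot be told apart.

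Promoters of the genes show where the factors could meet them, and the sequences below are the windows in which the forkhead letters or an E-box occurred. The letters TGTTTAC, or GTAAACA on the other strand, were searched for in RefSeq windows (GRCh38.p14) from 250 bases before to 50 bases after each annotated start, of which these genes had 19. TXNIP, PIK3IP1 and FOXO4 each had a window that holds them, as did 3.42% of all 35116 windows. The E-box CACGTG, the same on both strands and a motif bound among others by MLX and its partners, was in a window of CCNG2 and of CITED2 and in 7.26% of all windows. In TXNIP the forkhead letters began 124 bases before the start and stood between 2 CCAAT boxes, one of them read on the other strand as ATTGG. In PIK3IP1 and FOXO4 they began 17 and 24 bases after the start. The CCAAT box, on either strand, was in a window of FOXO1, of TXNIP and of TOB1 and in 34.6% of all windows. Capitals mark the forkhead letters, the E-box and, in TXNIP, the CCAAT boxes, and each sequence is written 5′ to 3′ along its gene.
TXNIP, chr1:145996665-145996735, minus strand: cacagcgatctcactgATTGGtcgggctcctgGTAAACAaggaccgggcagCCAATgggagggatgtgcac
PIK3IP1, chr22:31292455-31292483, minus strand: taaagagaggcTGTTTACcagaacagcat
FOXO4, chrX:71095863-71095891, plus strand: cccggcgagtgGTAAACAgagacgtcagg
CCNG2, chr4:77157157-77157202, plus strand: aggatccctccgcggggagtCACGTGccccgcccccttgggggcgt
CITED2, chr6:139374776-139374821, minus strand: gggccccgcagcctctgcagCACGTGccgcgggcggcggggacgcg
No window of FOXO1, FOXO3, BCL6, SESN3 or TOB1 held the forkhead letters or the E-box, which says only that these letters are not in these windows. A match describes the sequence and was not set against any measure of binding.

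Serum starvation raised 7 of the 10 genes: FOXO1, FOXO3, BCL6, CCNG2, TXNIP, CITED2 and TOB1. None fell, and FOXO4, PIK3IP1 and SESN3 did not pass the test. Over all genes tested 57.6% changed in this comparison, 30.3% upward and 27.3% downward. The SS arrays lay wholly above those of C for 9 of the 10 genes, SESN3 being the exception, beside 37.9% of all genes that lay above and 33.3% that lay below. The median log2 difference of the 10 genes was 1.04, beside 0.07 over all genes, and 0.65 beside -0.32 with arrays centred on their medians. With ADMA in serum-free medium, FOXO1, FOXO3, BCL6, CCNG2 and CITED2 fell against SS, 5 of 10, and none rose, beside 13.8% of all genes that fell and 15.7% that rose (29.5% in all), and the median log2 difference was -0.39 beside 0.03. The ADMA arrays lay wholly below those of SS for 6 genes, these 5 and TOB1, beside 21.9% of all genes below and 24.3% above. The calls of FOXO1, FOXO3, CCNG2 and CITED2 were lost with the mean of all probe sets of a gene, and that of CCNG2 also rests on single arrays, as given below. Against control cells FOXO3, BCL6, CCNG2, TXNIP and TOB1 stayed higher with ADMA and SESN3 was lower, so that 5 rose and 1 fell beside 26.6% and 23.2% of all genes (49.8% in all). The ADMA arrays lay wholly above those of C for 7 genes, beside 33% of all genes above and 29% below. With arrays centred on their medians 6 of the 10 genes rose and 1 fell in SS, 6 fell with ADMA against SS, and 3 were higher and 2 lower with ADMA than in C, while over all genes 2014 rose and 5184 fell, 902 rose and 2097 fell, and 1209 rose and 6101 fell in the 3 comparisons, against 3738 and 3372, 1935 and 1704, and 3284 and 2859 as deposited. These 3 comparisons share arrays and are set side by side, not counted as separate evidence.

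**Figure D1:**
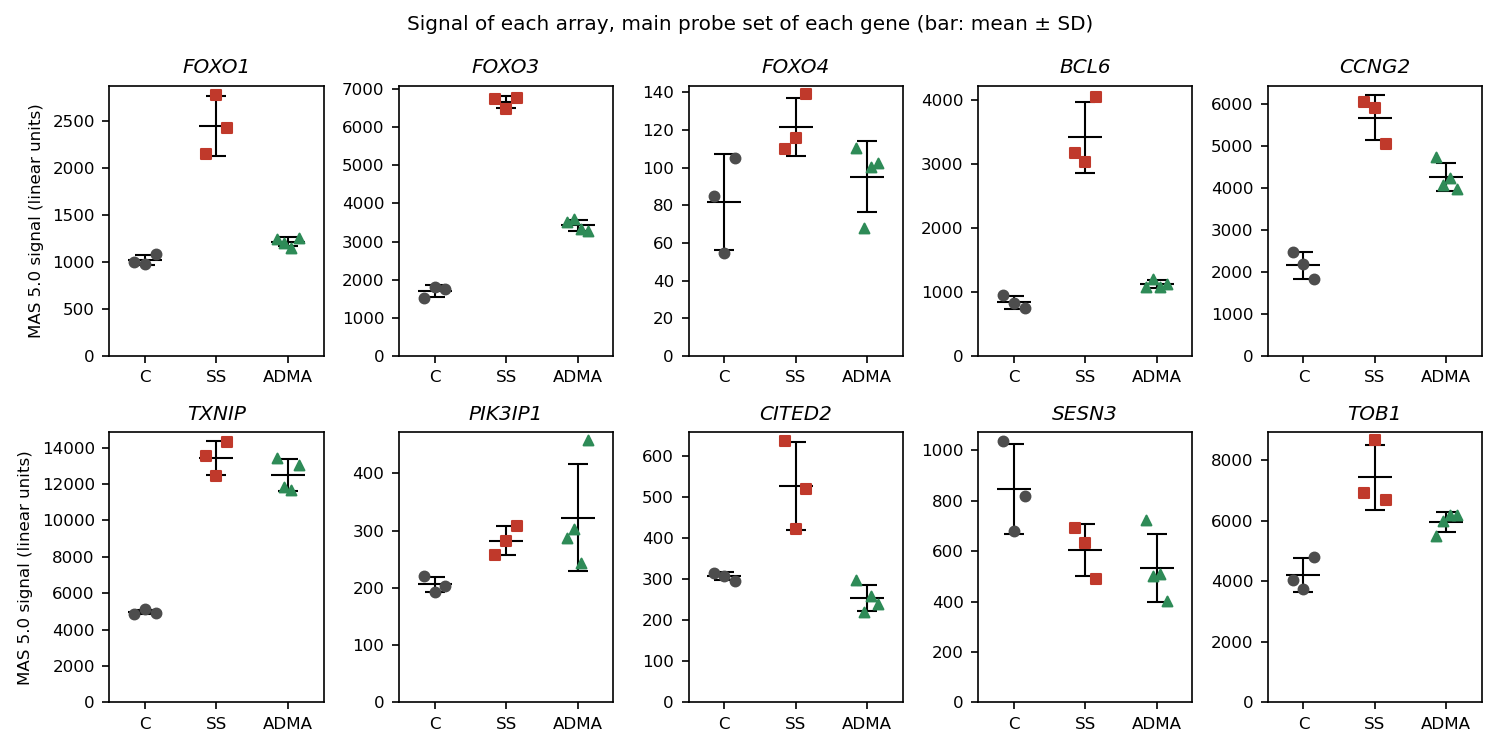
MAS 5.0 signal in linear units (vertical axis, from 0, a scale of its own for each gene) of the main probe set of each gene on every array, as a circle in C, a square in SS and a triangle in ADMA, with the mean and SD of each group as a bar. FOXO3 lies between 6483 and 6761 in SS, above the 1527 to 1811 of C, with the ADMA arrays at 3279 to 3591 between them, while the ADMA arrays of TXNIP overlap those of SS.

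FOXO1, the member best known from insulin signalling in liver and other tissues, gave signals of 1000.4, 980.0 and 1085 in C, of 2146, 2782 and 2421 in SS and of 1249.6, 1197, 1152 and 1255 with ADMA. The SS arrays lay above all others, and the ADMA arrays lay just above those of C. FOXO1 rose 2.39-fold in SS over C, a log2 difference of 1.25 (standard error, SE, 0.09 and adjusted p = 1.22e-08). ADMA brought it down by a log2 difference of -1.01 (SE 0.08, adjusted p = 4.81e-07) from SS. What was left over C was a log2 difference of 0.25 (95% interval 0.07 to 0.43, adjusted p = 0.0188), which did not pass the test and was -0.26 with arrays centred on their medians. A dimmer FOXO1 probe set, 202723_s_at, rose by 1.42 (SE 0.08) and fell by 0.80 (SE 0.08), and on it the difference of ADMA from C passed the test at 0.62 (SE 0.08, adjusted p = 9.03e-06).

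FOXO3, the factor tied to stress resistance and to keeping stem cells quiescent, had signals of 1527, 1811 and 1759 in C, 6739.7, 6483 and 6761 in SS, and 3514, 3591, 3338 and 3279 with ADMA. No 2 groups overlapped. It rose 3.93-fold with serum starvation, a log2 difference of 1.97 (SE 0.07, adjusted p = 9.36e-12). With ADMA it fell from that level by a log2 difference of -0.96 (SE 0.07, adjusted p = 7.05e-08) and stayed 2.02-fold above C (adjusted p = 7.24e-09), a log2 difference of 1.02 that was 0.51 with arrays centred on their medians (adjusted p = 0.000153). All 3 FOXO3 probe sets that passed the filter made the same calls in the 3 comparisons, with rises of 1.55 to 1.97 in SS and log2 differences of -1.35 to -0.64 from SS to ADMA. The remaining probe set, 231548_at, was under the background level, which is set for each array at the 95th percentile of its 24 probe sets for Bacillus genes, on 9 of 10 arrays.

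FOXO4, the X-linked family member, was dim on its single probe set, with signals of 85.0, 54.4 and 105 in C, 109.8, 115.6 and 139 in SS, and 110.4, 67.7, 100.6 and 102 with ADMA. All SS arrays lay above those of C, while the ADMA arrays overlapped both. Its log2 difference was 0.62 for SS minus C (95% interval -0.04 to 1.28, adjusted p = 0.0889) and -0.37 for ADMA minus SS (95% interval -0.99 to 0.25, adjusted p = 0.329). With arrays centred on their medians SS minus C was 0.23 (adjusted p = 0.542), and ADMA minus C, 0.25 as deposited (adjusted p = 0.468), was -0.25. The first interval holds both no difference and one of the size seen in FOXO1, so that neither was detectable as such at this signal.

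The genes whose pattern over the 10 arrays lay nearest to each factor were found by the root mean square difference of log2 signals, each gene centred on its own mean. For FOXO1 they were CMTR2, XPOT and NRIP1, at 0.08, 0.11 and 0.12, where the SD of FOXO1 itself over the arrays was 0.56. For FOXO3, with an SD of 0.81, they were ULBP2, HKDC1 and FNDC3B at 0.09 each. FOXO4, with an SD of 0.40, had no neighbour as near, its closest being ZNF354C, LCN10 and STX1A at 0.17, 0.18 and 0.19. The measure is a description over arrays that fall into 3 groups.

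PIK3IP1, a membrane protein that binds and inhibits PI3K and so acts upstream of AKT and FOXO, had signals of 221, 194 and 204 in C, 257, 282 and 308 in SS, and 287, 302, 243 and 458 with ADMA. The arrays of C lay below all others, and the ADMA arrays spread around those of SS, with replicate 4 the highest. Neither SS minus C, at a log2 difference of 0.45 (95% interval 0.03 to 0.88, adjusted p = 0.0564), nor ADMA minus C, at 0.61 (SE 0.19, adjusted p = 0.0106), passed the test. ADMA minus SS was 0.15 (95% interval -0.24 to 0.55) and -0.029 without ADMA replicate 4. ADMA minus C passed in 4 of 14 other settings, among them the filter at the 60th percentile (adjusted p = 0.00921), but was 0.28 with quantile normalization (adjusted p = 0.225) and 0.10 with arrays centred on their medians (adjusted p = 0.641). SS minus C was 0.14 and 0.064 in these scalings, and ADMA minus SS 0.037 with arrays centred. The probe set 221756_at was under the background level in all C arrays, at 22.9, 32.7 and 146 in SS and at 106, 119, 184 and 137 with ADMA, at least 2.80-fold above C. It did not pass the filter and was not tested, and the tested probe set 1555632_at gave 0.38 for SS minus C and -0.24 for ADMA minus SS, neither past the test.

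BCL6, a zinc finger repressor that FOXO factors are known to induce and that is best studied in germinal centre B cells, had signals of 947, 823 and 749 in C, 3167, 3030.5 and 4051 in SS, and 1075, 1209, 1079 and 1122 with ADMA. The SS arrays stood far above both other groups. It rose 4.05-fold in SS, a log2 difference of 2.02 (SE 0.11, adjusted p = 6.95e-10), and fell by a log2 difference of -1.60 (SE 0.10, adjusted p = 4.42e-08) with ADMA. The fall was the largest among the main probe sets of the 10 genes as deposited. ADMA-treated cells remained above C by 0.42 (SE 0.10, adjusted p = 0.00238), a difference that was -0.083 with arrays centred on their medians and whose call was lost without C replicate 3, at 0.34 (adjusted p = 0.0173). Of 14 other settings 4 more lost the call with the direction kept, among them limma without a trend (adjusted p = 0.0103). A second probe set, 215990_s_at, made the same calls with a rise of 1.58 (SE 0.18), a log2 difference of -0.82 (SE 0.16) from SS to ADMA, and 0.76 (SE 0.16) from C to ADMA.

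CCNG2, an unusual cyclin that is raised in arrested cells and binds the phosphatase PP2A, had signals of 2479, 2182 and 1824 in C, 6062, 5912 and 5061 in SS, and 4741, 4088, 4239 and 3988 with ADMA. The 3 groups did not overlap. It rose 2.64-fold in SS, a log2 difference of 1.40 (SE 0.10, adjusted p = 1.73e-08). The step down with ADMA was small, at -0.41 (SE 0.10, adjusted p = 0.00328), and the call was lost without SS replicate 1 (-0.36), SS replicate 2 (-0.38) or ADMA replicate 4 (-0.38), with adjusted p of 0.0198, 0.0184 and 0.0118. It was also lost in limma without a trend (adjusted p = 0.0181) and in SAM, the permutation method of the study (false discovery rate from permutations 0.0215). ADMA-treated cells stayed 1.98-fold above C (adjusted p = 5.45e-07), a log2 difference of 0.99 that was 0.48 with arrays centred on their medians (adjusted p = 0.000464). The 4 probe sets that passed the filter all rose in SS, by 0.94 to 1.40. From SS to ADMA only the brightest of them passed the test, and the others had log2 differences of -0.27 (202770_s_at), -0.05 (211559_s_at) and -0.0037 (228081_at). Whether the probe sets differ from one another was not tested.

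TXNIP, which binds thioredoxin and restrains glucose uptake, and whose promoter window holds the forkhead letters printed above, had signals of 4864, 5109.7 and 4919 in C, 13538.5, 12455 and 14296 in SS, and 13414, 11837, 11659 and 13044 with ADMA. The arrays without serum formed 1 range, far above C. It rose 2.70-fold in SS (log2 difference 1.43, SE 0.07, adjusted p = 1.63e-10) and was 2.51-fold above C with ADMA (adjusted p = 3.86e-10), a log2 difference of 1.33 that was 0.82 with arrays centred on their medians (adjusted p = 4.21e-08). For TXNIP the log2 difference of ADMA minus SS was -0.11 (95% interval -0.24 to 0.03, adjusted p = 0.203), an interval that leaves out a fall as large as that of FOXO1, FOXO3, BCL6 or CITED2. It was -0.25 with quantile normalization, where the adjusted p was 0.000573 and only the fold of 1.2 was missed, and -0.22 with arrays centred on their medians (adjusted p = 0.0679). The other TXNIP probe sets rose by 1.22 and 2.04 in SS and gave -0.18 and -0.24 from SS to ADMA, neither past the test, although the ADMA arrays of the latter, 201009_s_at, lay wholly below those of SS.

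CITED2, which binds the coactivators CBP and p300 and limits hypoxia-inducible transcription, had signals of 316, 309 and 296 in C, 636, 423 and 518 in SS, and 297, 221, 259 and 241 with ADMA. All SS arrays were above the rest, and the ADMA arrays reached from below C into its range. It rose by a log2 difference of 0.76 (SE 0.16, adjusted p = 0.000632) in SS, which was 0.37 and did not pass with arrays centred on their medians (adjusted p = 0.0696). With ADMA it fell 2.05-fold, a log2 difference of -1.04 (SE 0.15, adjusted p = 6.77e-05). ADMA minus C was -0.28 (95% interval -0.60 to 0.04, adjusted p = 0.118), and it passed the test at -0.57 with quantile normalization and -0.78 with arrays centred on their medians. On the dimmer probe set 207980_s_at the rise did not pass, at 0.48 (SE 0.17, adjusted p = 0.027), and the fall did, at -0.69 (SE 0.16, adjusted p = 0.00433).

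SESN3, a sestrin that FOXO factors are known to induce and that restrains mTORC1, ran against the other genes. Its main probe set gave 1039, 682 and 820.3 in C, 692, 635 and 489.9 in SS, and 723, 501, 509 and 403 with ADMA. The 3 ranges overlapped, with the lowest values among the arrays without serum. The log2 difference of SS minus C was -0.48 (95% interval -0.90 to -0.05, adjusted p = 0.0442), which did not pass the test as deposited and passed in 4 of 14 other settings. These were arrays centred on their medians (-0.87, adjusted p = 9.74e-05), the replicate block (adjusted p = 0.00474) and both means of probe sets. The means take in 235683_at, described below, which passed the filter only through its C arrays, and so add no support. The mean of probe sets past the filter was also chosen after seeing the data. ADMA minus SS was -0.20 (95% interval -0.59 to 0.20), and -0.31 with arrays centred. ADMA minus C was -0.68 (SE 0.18, adjusted p = 0.00524) and -1.18 with arrays centred, a fall whose call was lost without any 1 of 5 arrays, C replicates 1 and 3 and ADMA replicates 2, 3 and 4, at -0.69 to -0.52. The call was also lost in limma without a trend (adjusted p = 0.0201) and in SAM. The probe set 235683_at gave signals of 297, 360.3 and 353 in C, 62.6, 66.2 and 86.1 in SS and 10.0, 49.1, 61.9 and 50.04 with ADMA. It passed the filter only through its C arrays, so that its log2 difference of -2.24 for SS minus C is a description and no test is given. All 4 ADMA arrays lay under the background level, at least 5.39-fold lower than C. The third probe set past the filter, 235150_at, gave 153, 153 and 160 in C, 82.1, 93.3 and 112 in SS, and 109, 74.3, 96.1 and 116 with ADMA. On it both groups without serum lay wholly below C. Its log2 differences were -0.71 for SS minus C (adjusted p = 0.0197) and -0.67 for ADMA minus C (adjusted p = 0.0207), neither past the test. Of the 7 SESN3 probe sets 3 passed the filter, and the 4 others were under it in the mean of all arrays.

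TOB1, an antiproliferative protein that recruits the CCR4-NOT deadenylase to RNA, had signals of 4059.8, 3754 and 4821 in C, 6932, 8668 and 6699.6 in SS, and 5501, 5986, 6196 and 6198 with ADMA. The groups did not overlap and the ADMA arrays lay between the others. It rose 1.76-fold in SS, a log2 difference of 0.82 (SE 0.10, adjusted p = 4.3e-06) that was 0.43 with arrays centred on their medians (adjusted p = 0.00124). From SS to ADMA the log2 difference was -0.31 (SE 0.09, adjusted p = 0.0164), which did not pass as deposited and passed with quantile normalization (-0.37, adjusted p = 0.00913), with arrays centred on their medians (-0.42), and without C replicate 3 or SS replicate 3. Against C it was higher with ADMA by 0.51 (SE 0.09, adjusted p = 0.000273), a difference of 0.0037 with arrays centred on their medians. That call was lost in 3 of 14 other settings, the centring among them. The second probe set, 228834_at, rose by 1.32 in SS (SE 0.26, adjusted p = 0.000528).

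**Figure D2:**
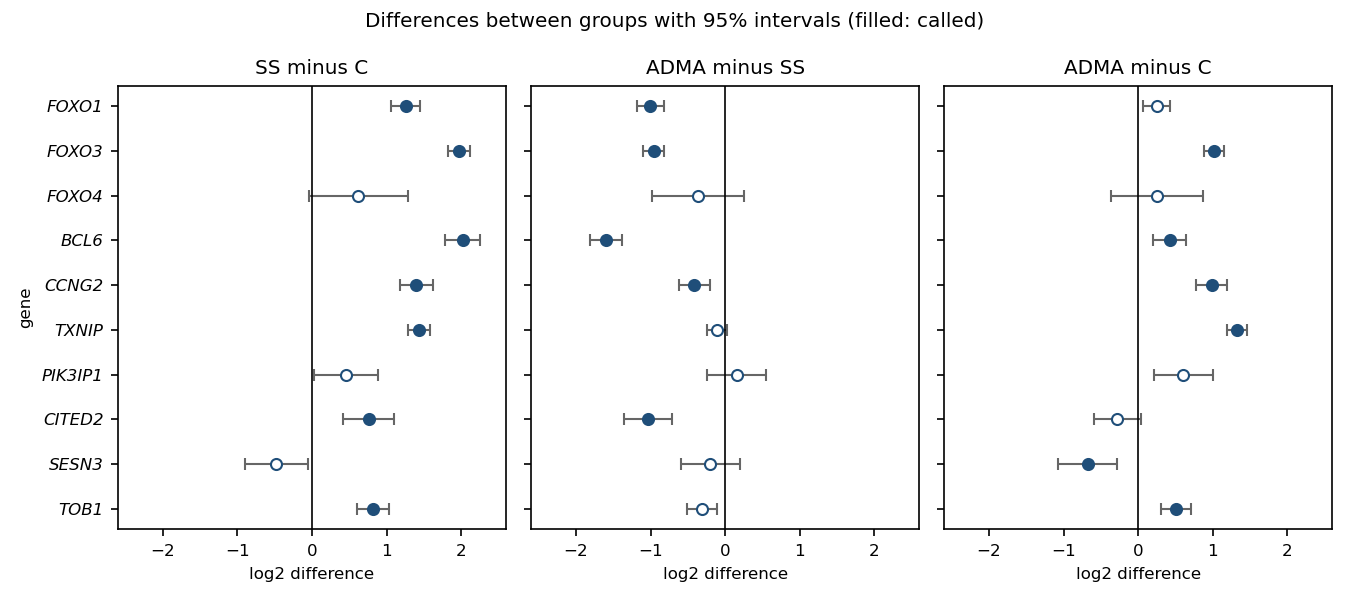
Log2 difference of the main probe set of each gene (horizontal axis; genes on the vertical axis) for SS minus C, ADMA minus SS and ADMA minus C, with bars for the 95% interval from limma, filled points for genes that passed the test and open points for those that did not. The interval of TXNIP for ADMA minus SS runs from -0.24 to 0.03, while those of FOXO1, FOXO3, BCL6 and CITED2 end at -0.72 or lower.

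Over all probe sets of the 10 genes, 24 of 34 passed the filter. In SS 17 of these 24 rose, beside 29.4% of all 23113 probe sets tested that rose and 24% that fell (53.4% in all). The SESN3 probe set 235683_at was lower, but it passed the filter only through its C arrays and is not counted as a fall. With ADMA 10 fell against SS and none rose, beside 11.2% and 13% of all (24.2% together). Against C 15 were higher with ADMA and, leaving out 235683_at, the main SESN3 probe set alone was lower, beside 26.6% and 19.9% (46.5% together). Probe sets of 1 gene read the same RNA and are not independent of each other. Both FOXO1, all 3 FOXO3, both BCL6 and both CITED2 probe sets that were tested fell with ADMA, against 1 of 4 for CCNG2 and none of 3 for TXNIP and 2 for TOB1.

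**Figure D3:**
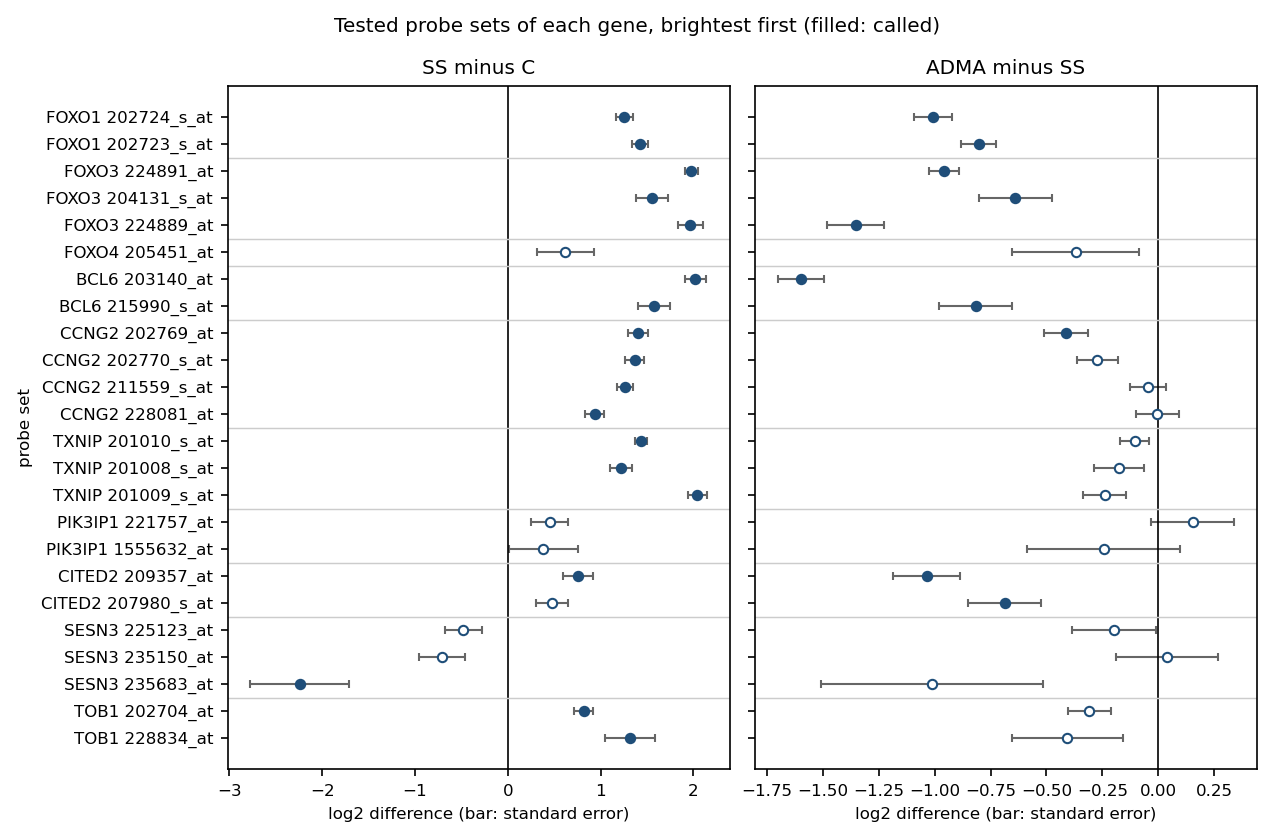
Log2 difference of each of the 24 tested probe sets (vertical axis, grouped by gene and ordered by mean signal) for SS minus C and ADMA minus SS (horizontal axes, not of equal range), with the SE as a bar, filled points for those past the test and open points for the rest. The FOXO3 probe sets lie at 1.55 to 1.97 in the first comparison, and the CCNG2 probe sets run from -0.41 to -0.0037 in the second. The SESN3 probe set 235683_at is filled in the first, although it passed the filter only through its C arrays.

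Of the 7 genes that rose in SS, 5 fell with ADMA, and of all 3738 genes that rose, 36.0% did. As deposited, the ADMA arrays of FOXO3, BCL6 and CCNG2 stood between C and SS and differed from both by the test, with the limits given above for BCL6 and CCNG2, those of TXNIP differed from C and did not pass the test against SS, and those of CITED2 differed from SS and not detectably from C. Whether the step down of FOXO1, FOXO3 and BCL6 differs from that of TXNIP or TOB1 was not tested as a difference between genes.

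Upstream of the factors, the PI3K-AKT arm had 24 tested genes, of which 13 rose and 4 fell in SS, with a median log2 difference of 0.35. Over all genes 30.3% rose and 27.3% fell. With arrays centred on their medians 8 of the 24 rose and 7 fell, with a median of -0.04, beside 2014 and 5184 of all 12342 genes. With ADMA 1 rose and 7 fell, with a median of -0.18, beside 15.7% and 13.8% of all genes. With arrays centred none rose and 7 fell with ADMA, with a median of -0.30, beside 902 and 2097 of all genes. The counts do not sort genes by whether they promote or restrain the pathway. IRS2, the adaptor of the insulin receptor and itself a known FOXO target, rose by 2.40 (SE 0.08, adjusted p = 4.83e-12) and fell by 0.35 with ADMA (SE 0.07, adjusted p = 0.0016). SGK1, a kinase that like AKT phosphorylates FOXO3, rose by 1.54 (SE 0.14) and fell by 0.66 (SE 0.13) with ADMA. Among the 4 genes of the arm that fell in SS, AKT1 and AKT2 were named after their values were seen. AKT1 fell by 1.06 in SS (SE 0.10, adjusted p = 2.29e-07) and rose by 0.46 with ADMA (SE 0.09). AKT2 fell by 0.63 in SS (SE 0.15) and had 0.18 with ADMA, which did not pass. Among the 29 tested genes for proteins that modify, bind or export FOXO factors, 11 rose and 11 fell in SS, and 8 rose and 7 fell with ADMA. With arrays centred on their medians 6 rose and 14 fell in SS, and 3 rose and 7 fell with ADMA. SKP2, the ubiquitin ligase subunit that marks FOXO1 for degradation, fell by 2.24 in SS (SE 0.12, adjusted p = 3.78e-10) and rose by 1.03 with ADMA (SE 0.11). PRKAA2, a catalytic subunit of the energy sensor AMPK, rose by 1.41 in SS (SE 0.20) and had a log2 difference of -0.25 with ADMA that did not pass.

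Other known FOXO targets moved in both directions, and the counts do not sort genes that FOXO factors raise from genes that they lower. Of 13 cell cycle genes 9 rose and 3 fell in SS, and 2 rose and 8 fell with ADMA, with median log2 differences of 0.58 and -0.49, beside 30.3% of all genes that rose and 27.3% that fell in SS and 15.7% and 13.8% with ADMA. The 3 that fell in SS, named after their values were seen, were CCNB1 and PLK1, which act in mitosis, at -2.95 (SE 0.06) and -2.59 (SE 0.11), and CCND2, a D-type cyclin, at -0.58 (SE 0.09). CCNB1 and PLK1 were the 2 that rose with ADMA, by 1.19 (SE 0.05) and 0.97 (SE 0.10). CDKN2B, the CDK4/6 inhibitor p15, rose by 4.26 in SS (SE 0.10, adjusted p = 3.95e-13) and fell by 0.65 with ADMA (SE 0.10), and CDKN1A, the CDK inhibitor p21, rose by 1.80 (SE 0.08) and fell by 1.16 (SE 0.08). Both are also targets of other factors. Of 18 genes of stress resistance, metabolism and autophagy 13 rose and 4 fell in SS, with a median of 0.94, and 3 rose and 9 fell with ADMA, with a median of -0.34. FBXO32, a muscle-atrophy ubiquitin ligase subunit, rose by 1.74 (SE 0.17) in SS and had -0.43 with ADMA, which did not pass (adjusted p = 0.0418). The 4 that fell in SS, BNIP3 of mitophagy and CAT, PRDX3 and TXN2 of peroxide removal, were named after their values were seen. Of 5 apoptosis targets 3 rose and 1 fell in SS and 3 fell with ADMA. PMAIP1, a BH3-only protein, rose by 1.33 (SE 0.06) and fell by 0.40 with ADMA (SE 0.05), and TNFSF10, the ligand TRAIL, fell by 0.68 in SS (SE 0.14) and had 0.12 with ADMA, which did not pass. With arrays centred on their medians 6 cell cycle, 9 stress and 1 apoptosis gene rose in SS and 4, 4 and 1 fell, and the medians were 0.19, 0.55 and -0.06, against 0.58, 0.94 and 0.33 as deposited. In this scaling 2014 of all 12342 genes rose and 5184 fell in SS, with a median of -0.32.

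Among 15 relatives of the 10 genes, 6 rose and 3 fell in SS (5 and 6 with arrays centred on their medians), and none rose and 6 fell with ADMA. For this list and those that follow, the shares over all genes were 30.3% up and 27.3% down in SS. They were 15.7% and 13.8% with ADMA. With arrays centred 2014 of all 12342 genes rose and 5184 fell in SS, and 902 rose and 2097 fell with ADMA. ARRDC3, an arrestin-domain protein related to TXNIP, rose by 1.88 (SE 0.16) and fell by 1.24 with ADMA (SE 0.15), and SESN1, the sestrin best known as a p53 target, rose by 1.38 (SE 0.07) and fell by 1.18 (SE 0.07). Of 17 partners of the proteins 5 rose and 5 fell in SS (3 and 9 with arrays centred), and 3 rose and 2 fell with ADMA (none and 3 with arrays centred). As deposited these counts were near the shares over all genes. WDR59, of the GATOR2 complex that sestrins bind, rose by 1.12 (SE 0.09) and had 0.08 with ADMA, which did not pass, and EP300, the coactivator bound by CITED2, rose by 0.91 (SE 0.15) and fell by 0.62 (SE 0.14). The DREAM complex represses cell cycle genes in quiescent cells, and its list here also holds the kinase DYRK1A, which is not a subunit. This list had 3 of 12 genes higher, DYRK1A among them, and 8 lower in SS, with a median of -0.48. With ADMA 2 were higher and 2 lower. With arrays centred on their medians none was higher and 9 were lower in SS, with a median of -0.87. LIN54, the DNA-binding subunit of the complex, fell by 2.35 (SE 0.18) and had 0.31 with ADMA, which did not pass, and TFDP1, the partner of E2F factors, fell by 1.39 (SE 0.07) and rose by 0.53 (SE 0.07).

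**Figure D4:**
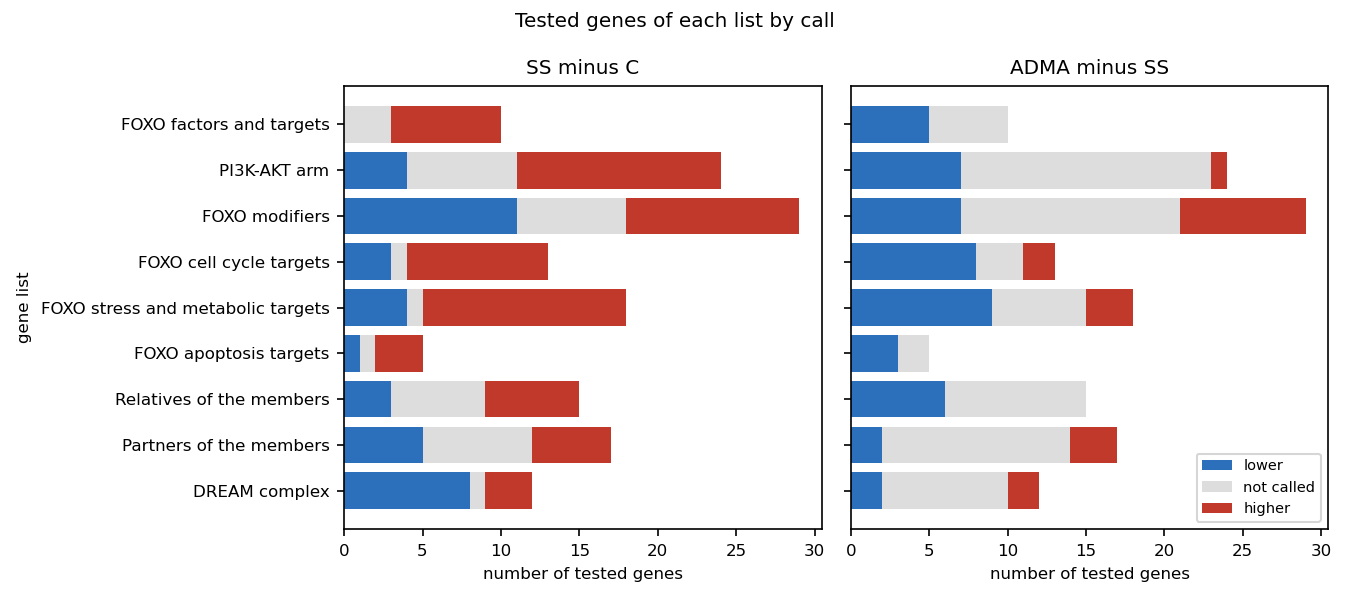
Number of tested genes (horizontal axis, from 0) in each list (vertical axis) that were lower (blue), not past the test (grey) or higher (red) for SS minus C and ADMA minus SS. The stress and metabolic FOXO targets had 13 of 18 genes higher in SS and 9 lower with ADMA, and the DREAM complex list, which takes in DYRK1A, had 8 of 12 lower in SS.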

How the data were processed

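Total RNA of 10 LoVo cultures was hybridized to Affymetrix HG-U133 Plus 2.0 arrays. The authors made the deposited intensities with MAS 5.0, as 1 linear signal per probe set, scaled so that the trimmed mean without the highest and lowest 2% is about 500.1 on each array. The methods' filter on a "perfect value" was not used. Of 54675 probe sets 41091 carry 1 symbol in the platform annotation. Log2 was taken with no pseudocount and no further normalization. All 10 arrays entered 1 linear model (limma 3.58.1 under R 4.3.3, eBayes with trend), and p was adjusted by Benjamini-Hochberg over 12342 genes or 23113 probe sets, at the thresholds of the methods' SAM analysis. The number of arrays limits the precision. The steps were tested on simulated data for SS minus C over 12342 genes, of which 200 were given a change. There 35.8, 77.6 and 95.5% of seeded log2 changes of 0.5, 1 and 2 were recovered. In the data 57.6% of genes were called, so that the adjustment of p differs and these shares do not carry over.

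All 10 genes are named, with their probe sets that passed the filter. Most probe sets under the filter are counted and not described one by one. In each other list the 2 genes with the largest change among those called in SS minus C are named, leaving out CCNB1 and PLK1. These 2 would have come ahead of CDKN1A by size, and are named outside the rule. Other genes said to be named after their values were seen are also outside it. The genes and lists were chosen with earlier results of these data known. Alternatives were quantile normalization, centring on medians, other filters, a pseudocount of 16, signals taken at the background level, limma without trend or with array weights, SAM, 2 groups alone, a fold of 1.5, means of probe sets, a replicate block and leaving out each array. Plots used matplotlib 3.10.9 in Python 3.11.15.

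The labels call the arrays of a group biological replicates. The limma p-values set differences between groups against the spread between these replicates, pooled over the 3 groups and moderated over genes. No 2 arrays held identical values.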

Additional observations from a re-analysis of the deposited data

Results flagged for a closer look

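Among the 34 probe sets, 3 had an ADMA array whose distance to its nearest neighbour took up more of the range of the 4 arrays than Dixon's 95% critical value for 4 values, where chance gives about 1 in 20. The TXNIP probe set 201008_s_at had 6105 on replicate 3 against 7948 to 8024 on the others (ratio 0.965). On the SESN3 probe set 235683_at replicate 1 had 10.0 against 49.1 to 61.9 (0.873), all under the background level. On the TOB1 probe set 228834_at replicate 1 had 577 against 265 to 299 (0.847). The SESN3 and TOB1 values are from the same array, ADMA replicate 1, and none of the 3 is the main probe set of its gene.

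Outside the probe sets used, 3 are annotated to FOXO3 and FOXO3B together, and 2 of them were higher on all SS arrays than on all C arrays. Their mean log2 differences were 1.57 (204132_s_at) and 2.30 (210655_s_at), and from SS to ADMA -0.88 and -1.10, with no test. Which of the genes gives the signal was not tested.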

How the results depend on the processing

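The 7 rises in SS were called in each alternative with 1 exception, CITED2 with arrays centred on their medians. The number of genes called was 7 to 8 in SS minus C over all alternatives. Where it was 8 with means of probe sets, the call added was SESN3, in means that take in 235683_at. For ADMA minus SS, as deposited 5, it was 1 with the mean of all probe sets of a gene, which takes in 10 probe sets under the filter, and 4 with the mean of those past the filter, an alternative chosen after seeing the data. For ADMA minus C, as deposited 6, it was 3 with SAM, all of them higher than in C, so that the fall of SESN3 was not called there. With each array left out it was 7, 4 to 6 and 4 to 6 in the 3 comparisons. With the replicate block, in which ADMA replicate 4 has a level of its own and drops out, it was 8, 5 and 5: SESN3 in SS minus C passed (adjusted p = 0.00474), BCL6 in ADMA minus C did not (adjusted p = 0.0108), and no other call changed. Deviations of same-numbered arrays from their group means correlated at -0.074 to 0.10 over 9 pairs, so that the number was not taken to pair arrays. Directions that turned were of small differences. PIK3IP1 in ADMA minus SS was -0.029 with the replicate block, -0.029 to 0.28 with each array left out, and -0.045 with the mean of probe sets past the filter. FOXO4 in ADMA minus C was -0.26 with quantile normalization, -0.25 with arrays centred on their medians and -0.014 to 0.46 with each array left out, the lowest without C replicate 2. With arrays centred on their medians ADMA minus C was -0.26 for FOXO1 and -0.083 for BCL6, and with the mean of all probe sets it was 0.018 for CITED2. Except where stated, the cause was not tested. Signals near the background level, as of FOXO4 and most SESN3 probe sets, limit what could be detected.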
